A study of Mus musculus with 16 samples.

Results

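The PGC-1 coactivators and the oxidative transcription factors that work with them were followed through the muscle of 16 mice. The group holds 10 genes, taken by name from the 24454 genes of the counts table, namely *Ppargc1a*, *Ppargc1b*, *Perm1*, *Ppara*, *Ppard*, *Esrra*, *Esrrb*, *Esrrg*, *Nrf1* and *Tfam*. All 10 were found in the table and all 10 passed the filter on low counts, with 514 to 33843 reads per gene and mouse. AICAR raised *Ppargc1a*, *Perm1*, *Ppard* and *Esrra* in FVB and in HSALR muscle, 3.16-fold and 1.67-fold in the case of *Ppargc1a*. It lowered *Esrrg* in FVB muscle, while no difference was called for *Ppargc1b*, *Esrrb*, *Nrf1* or *Tfam* in any comparison of the reported fit. Between HSALR and FVB muscle 1 of the 10 genes was called after vehicle, where 26.9% of all genes were called, and 3 were called after AICAR, where 21.8% of all genes were called. Most of these calls depended on single mice or on the way of fitting, as given beside each, and those that held in all fits made were *Ppargc1a* with AICAR in FVB mice, *Perm1* with AICAR in HSALR mice and *Ppara* between genotypes after AICAR.

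PGC-1α and PGC-1β, the products of *Ppargc1a* and *Ppargc1b*, are coactivators, proteins that do not bind DNA themselves but are brought to genes by transcription factors. In skeletal muscle their partners include the oestrogen-related receptors (ERRα, ERRβ and ERRγ, from *Esrra*, *Esrrb* and *Esrrg*), the fatty acid-sensing receptors PPARα and PPARδ (*Ppara*, *Ppard*) and nuclear respiratory factor 1 (*Nrf1*). Through these factors they drive genes of mitochondrial respiration, fatty acid oxidation and oxidative fibre type. Among them are *Tfam*, whose product packages mitochondrial DNA and takes part in its transcription, and *Perm1*, a muscle regulator induced by PGC-1 and ERR. AMP-activated protein kinase, the kinase that AICAR activates, is known to act on PGC-1α and on the expression of its gene.

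The RNA-seq libraries, 1 per mouse, came from *gastrocnemius* muscle taken at 3 months of age. FVB mice are the FVB/N background strain and were given vehicle (n = 3) or AICAR at 500 mg/kg for 7 days (n = 3), and HSALR mice, which carry the HSA transgene, were given vehicle (n = 5) or the same AICAR treatment (n = 5). HSALR mice are a model of myotonic dystrophy type 1 in which a human skeletal actin transgene drives a transcript with long CTG repeats in skeletal muscle. They were homozygous for 1 transgenic line (LR20b), and the controls are described as mice of the background strain, not as littermates. The series carries a title on splicing in HSALR muscle, and its AICAR groups let the response of these genes to AICAR be compared between genotypes. The reads that fell on genes numbered 64890014 to 81987726 per library. Levels are given as normalized CPM, read counts scaled to a common library size with TMM factors, and group means carry ± SD. Differences are log2 fold changes from edgeR's quasi-likelihood test, fitted over the 16 mice, and a difference was called at a Benjamini-Hochberg adjusted p under 0.05 across the 15487 genes that were tested. A p-value here sets a difference against the spread between mice of the same group, estimated for each gene over all 4 groups. The comparisons that use the same group of mice are not independent of each other.

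The libraries were those of skeletal muscle. The 5 fibre markers, *Acta1* and *Ckm* among them, summed to between 94160 and 152204 normalized CPM in every mouse. *Ucp1*, the defining gene of brown fat, where PGC-1α was first studied, had at most 1 read in a mouse. The cardiac genes *Nppa*, *Nppb*, *Myl7* and *Tnni3* had at most 22 reads. *Myh6* had 149 to 1173 normalized CPM, and its reads could be shared with the near-identical *Myh7* of slow fibres. The 8 epidermal markers summed to between 18.6 and 187 normalized CPM in 6 mice (FVB vehicle S450, FVB AICAR S448, HSALR vehicle S452, S453, S458 and S459) and to 1.21 or less in the other 10, which include all 5 HSALR mice given AICAR. Endothelial markers were lower in HSALR than FVB mice, as given beside the PPAR target genes. In bulk tissue, fewer cells of a type cannot be told apart from less RNA per cell.

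The 10 genes lie on 10 different chromosomes of GRCm38 (mm10). *Ppargc1a* (Entrez 19017) lies at chr5:51454249-52115853, *Perm1* (74183) at chr4:156203262-156221307, *Ppara* (19013) at chr15:85734910-85806851 and *Ppard* (19015) at chr17:28232754-28301469. *Esrra* (26379) lies at chr19:6910977-6922048, *Esrrb* (26380) at chr12:86361117-86521628, *Esrrg* (26381) at chr1:187608510-188214885, *Nrf1* (18181) at chr6:30047985-30153458 and *Tfam* (21780) at chr10:71225468-71238328. *Ppargc1a*, *Esrra* and *Tfam* are on the minus strand. A gene total adds up the reads of all exons, untranslated regions included, and does not separate the 3 annotated starts of coding *Ppargc1a* transcripts. *Esrra* is the only member whose exons meet those of other genes, *Trmt112* on the opposite strand and *Mir6990* on its own. Whether counting used the strand is not stated, but *Trmt112* had at most 613 reads per mouse against 5262 to 8897 for *Esrra*, and its difference with AICAR was -0.03 in FVB and 0.00 in HSALR mice on the log2 scale, with no call.

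The stretches around a start site that bear binding motifs for the factors of this same circuit are shown because several members are known to be controlled by one another. RefSeq promoter windows of GRCm38.p6, each from 250 bases before to 50 after an annotated start, were given for 9 of the 10 genes (14 windows), *Ppargc1b* not among them. A motif was searched on both strands, and the same search was made in 32851 windows of the genome. Capitals mark the motif, and positions count from the start site. *Ppara* held the NRF1 site (the 10 letters in capitals in its line) at position -31, *Esrrg* the MEF2 site (CTA and TAG with any 4 bases between them) at -22, *Tfam* the ETS site CCGGAAGT of GABPA at -47, and *Perm1* the ERR half-site AAGGTCA, read from the other strand, at -202. *Ppargc1a* held the core TGACGT of the cAMP response element, also from the other strand, at -50.
*Ppara*, NRF1 site, chr15:85735737-85735762, plus strand: gctcggtgGCGCATGCGCgcggacta
*Esrrg*, MEF2 site, chr1:187608976-187609001, plus strand: aaactttgCTATTTATAGtctacgcc
*Tfam*, ETS site, chr10:71238076-71238099, minus strand: gccgcggaCCGGAAGTccgggctt
*Perm1*, ERR half-site, chr4:156215717-156215739, plus strand: atccggtgTGACCTTagctaatg
*Ppargc1a*, cAMP response element core, chr5:51567762-51567783, minus strand: gccctcccACGTCActgagctc
Of all windows, 0.971% held the NRF1 site, 3.69% the MEF2 site, 3.89% the ETS site, 4.72% the ERR half-site and 7.51% the cAMP response element core. The longer ERR element TNAAGGTCA (1.28% of windows), which contains the half-site, the PPAR direct repeat of AGGTCA and AGGTCA with any 1 base between them (0.0396%) and the full cAMP response element TGACGTCA (1.79%), which contains its core, matched none of the 14. A match describes these letters only, and no binding was measured here.

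Per kilobase of gene length, the members spanned a wide range of normalized CPM. In FVB mice given vehicle, the mean level per kb was 72.2 for *Perm1*, 44.8 for *Esrra*, 15.2 for *Tfam*, 9.24 for *Ppard* and 8.18 for *Ppargc1a*, and the ranges of these 5 genes over the mice did not overlap between neighbours. *Esrrg* (6.93 per kb), *Ppara* (5.07), *Ppargc1b* (3.21), *Esrrb* (2.98) and *Nrf1* (2.35) followed, and of these neighbours only *Ppara* and *Ppargc1b* did not overlap. The coactivator genes themselves were thus far below their partner *Esrra* per kb, and *Ppargc1a* lay above *Ppargc1b* in every mouse. After AICAR, *Ppargc1a* moved from the fifth to the third place in FVB mice, with 25.9 per kb (range 18 to 33.8), above the highest *Tfam* value there of 15.0. In HSALR mice given AICAR it had 14.2 per kb (range 10.8 to 17), which overlapped *Tfam* (15.6) and *Ppard* (14.5). *Esrrg* and *Ppara* exchanged places between the groups, with *Ppara* above *Esrrg* in FVB mice given AICAR (7.65 against 3.90 per kb, no overlap) and overlapping it in both HSALR groups.

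**Figure D1:**
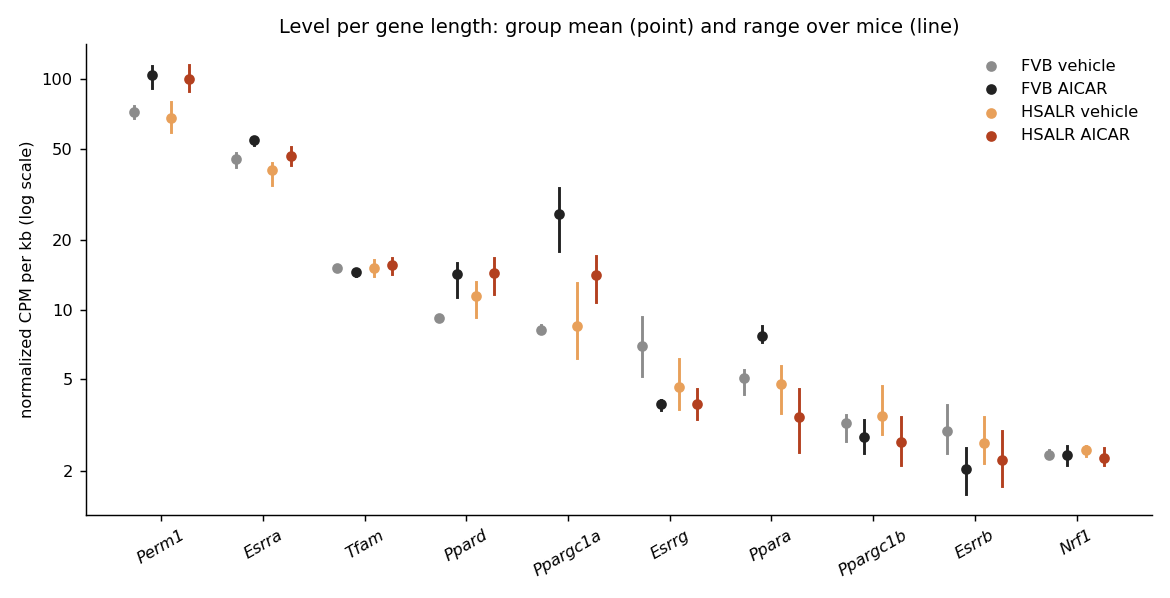
Level of the 10 genes per kb of gene length (log axis, normalized CPM per kb), with the group mean as a point and the range over the mice of a group as a line (n = 3 for FVB, n = 5 for HSALR groups). *Perm1* and *Esrra* were the 2 highest genes in all 4 groups, and *Ppargc1a* rose from 8.18 to 25.9 per kb in FVB mice given AICAR.

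The counts of members called are set beside the share of all genes called in the same comparison, as a description of 10 genes with no test. In FVB mice, AICAR raised 4 of 10 members and lowered 1, where 8.40% of all genes were called higher and 4.77% lower. With 1 mouse left out it was 2 to 3 higher and 0 to 1 lower (2 higher without S445, S448 or S449, and 0 lower without S449 or S450), and 5 were higher with DESeq2 or scaling to *Tbp*. In HSALR mice it raised 4 of 10 and lowered 0, where 26.6% of all genes were called, 13.7% higher and 13.0% lower. That count varied with the fit, with 2 higher and 2 lower (*Ppargc1b*, -0.45, adjusted p = 0.027, and *Ppara*, -0.56, adjusted p = 0.031, in edgeR) with library size only, 2 higher and 1 lower with scaling to *Tbp*, 1 higher and 0 lower with the epidermal score as a covariate, and 3 higher and 2 lower without S460. Between the genotypes, 1 of 10 members was called lower in HSALR mice after vehicle (11.5% of all genes were called lower and 15.4% higher), and 3 of 10 were called lower after AICAR (9.64% lower and 12.2% higher). Leaving out 1 mouse gave 0 after vehicle without S450, S453, S458 or S459, and 1 after AICAR without S449. The test of whether AICAR acted differently in the genotypes called 0 of 10 members in edgeR and 0.691% of all genes (0.484% with a smaller or more negative effect in HSALR mice), with 3 of 10 members at an unadjusted p under 0.05. DESeq2 called 1 of 10 in that test, limma with voom called 0, and edgeR with scaling to *Tbp* called 2. The groups of mice did not overlap for 5 members higher and 1 lower in FVB mice with AICAR (18.1% and 15.0% of all genes) and for 1 member higher and 0 lower in HSALR mice with AICAR (10.2% and 7.48%). They did not overlap for 3 members lower in HSALR than FVB mice after AICAR (11.6% of all genes lower, 26.5% in either direction) and for 0 members after vehicle (29.7% of all genes in either direction).

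**Figure D2:**
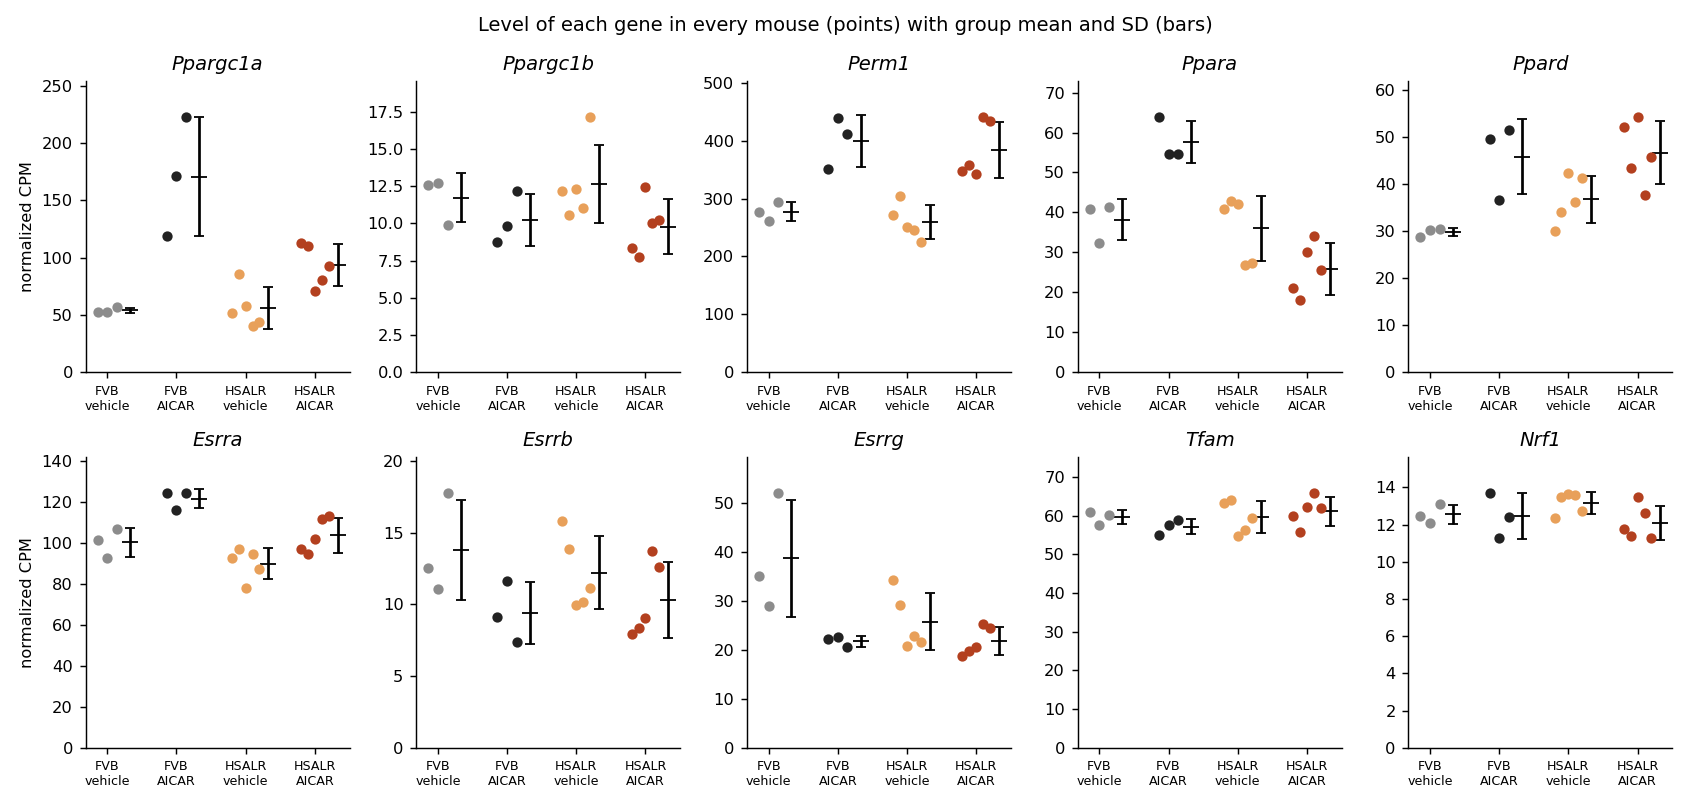
Normalized CPM of the 10 genes in every mouse, with 1 point per mouse and the mean ± SD of each group beside the points (axes start at 0). The 3 FVB mice given AICAR lay between 118 and 222 for *Ppargc1a*, against 40.6 to 86.0 in the 8 mice given vehicle.

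*Ppargc1a* showed the greatest rise with AICAR among the members. FVB mice given vehicle had 52.6, 52.3 and 56.7 normalized CPM (53.9 ± 2.46, n = 3), and FVB mice given AICAR had 118, 171 and 222 (171 ± 52.0, n = 3). The groups were far apart, with the lowest treated mouse well above every vehicle mouse. The rise was 1.66 on the log2 scale (standard error 0.27, 95% interval 1.10 to 2.23, adjusted p = 0.0011, edgeR's quasi-likelihood test, Benjamini-Hochberg adjusted). HSALR mice given vehicle had 51.9, 86.0, 57.3, 40.6 and 43.7 (55.9 ± 18.1, n = 5), and after AICAR they had 112, 110.4, 71.0, 80.6 and 92.4 (93.4 ± 18.1, n = 5). Mouse S452 was the high one among the vehicle mice and overlapped S460 and S462, the low ones after AICAR. The rise in HSALR mice was 0.74 on the log2 scale (standard error 0.20, adjusted p = 0.014 in the same edgeR test). It was called with each mouse left out in turn, but with the epidermal marker score as a covariate it was 0.81 with an adjusted p of 0.062.

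The level of *Ppargc1a* after vehicle did not differ detectably between genotypes, with a log2 fold change of 0.05 (95% interval -0.44 to 0.55). After AICAR it was lower in HSALR than in FVB mice, with all 5 HSALR mice (71.0 to 112) below all 3 FVB mice (118 to 222) and a log2 fold change of -0.87 (standard error 0.23, adjusted p = 0.013, edgeR). Without FVB mouse S449, the highest, this difference was -0.63 and no longer called (adjusted p = 0.088). The test of the difference itself gave an AICAR effect that was smaller by 0.92 on the log2 scale in HSALR mice (standard error 0.33, 95% interval of the difference -1.62 to -0.22), with an unadjusted p of 0.0131 and an adjusted p of 0.21 in edgeR. It was therefore not called, and over the other ways of fitting its adjusted p lay between 0.036 (scaling to *Tbp*) and 0.32.

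*Ppargc1b*, the gene of PGC-1β (Entrez 170826), lies at chr18:61291445-61400756 on the minus strand and was called in no comparison of the reported fit. Its level was 12.6, 12.8 and 9.86 normalized CPM in FVB mice given vehicle and 8.76, 9.82 and 12.2 after AICAR. HSALR mice had 12.2, 10.6, 12.3, 11.1 and 17.1 after vehicle and 8.34, 7.76, 12.5, 10.0 and 10.2 after AICAR. The groups overlapped in both genotypes, and S459 stood above the other HSALR vehicle mice. The log2 fold change with AICAR was -0.20 in FVB mice (95% interval -0.61 to 0.22) and -0.37 in HSALR mice (95% interval -0.69 to -0.05, adjusted p = 0.078, edgeR), neither called. In HSALR mice it was called without S460 (-0.48, adjusted p = 0.028) and with library size only (-0.45, adjusted p = 0.027).

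*Perm1*, which encodes a regulator of mitochondrial and contractile genes in striated muscle, had the highest level and the steadiest response. FVB mice had 277, 261 and 295 normalized CPM after vehicle (278 ± 17, n = 3) and 351, 439 and 411 after AICAR (401 ± 44.9, n = 3). HSALR mice had 273, 304, 250.2, 246 and 226 after vehicle (259.8 ± 29.9, n = 5) and 347, 358, 342, 441 and 435 after AICAR (384 ± 49.0, n = 5). In both genotypes every treated mouse lay above every vehicle mouse. On the log2 scale the rise was 0.53 in FVB mice (standard error 0.12, adjusted p = 0.011) and 0.57 in HSALR mice (standard error 0.10, adjusted p = 0.00061) in edgeR's test. The effects of the genotypes differed by 0.04 (95% interval -0.30 to 0.37), and the levels of the genotypes were not called different after either treatment. In HSALR mice the call held in all 9 other fits and with each of the 10 mice left out, while in FVB mice it was lost without S448 (0.45, adjusted p = 0.058).

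Among the fatty acid receptors, *Ppard* rose with AICAR in both genotypes and *Ppara* was called in neither. *Ppard* is the main PPAR of skeletal muscle and is tied to endurance and fatty acid use. It had 28.8, 30.1 and 30.3 normalized CPM in FVB mice given vehicle (29.7 ± 0.831, n = 3) and 49.4, 36.6 and 51.4 after AICAR (45.8 ± 8.02, n = 3), without overlap. HSALR mice had 30.04, 34.0, 42.2, 36.1 and 41.2 after vehicle (36.7 ± 5.06, n = 5) and 52.2, 43.4, 54.1, 37.7 and 45.6 after AICAR (46.6 ± 6.67, n = 5). Here only S462 fell within the range of the vehicle mice. *Ppard* gained 0.62 on the log2 scale in FVB mice (standard error 0.15, adjusted p = 0.013) and 0.34 in HSALR mice (standard error 0.12, adjusted p = 0.038), both from edgeR. Both calls depended on single mice, since 2 of 6 mice left out ended the call in FVB mice (S449, 0.53, and S445, 0.60) and 6 of 10 did so in HSALR mice, with 0.28 to 0.41 and adjusted p up to 0.096 over the 10. In FVB mice *Ppard* after vehicle was the tightest of all members, and the genotypes were not called different after vehicle (0.30, adjusted p = 0.11, edgeR), except with scaling to *Tbp* (0.58, adjusted p = 0.012). In HSALR mice the rise with AICAR was not called with library size only (0.27, adjusted p = 0.074), *Tbp* (0.23, adjusted p = 0.26) or the epidermal score (0.34, adjusted p = 0.18).

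*Ppara*, the receptor that governs fatty acid oxidation in liver and other oxidative tissues, had fold changes of opposite sign with AICAR in the genotypes, neither of them called in the reported fit. FVB mice had 40.8, 32.3 and 41.4 normalized CPM after vehicle and 63.8, 54.5 and 54.6 after AICAR, without overlap, but the difference of 0.60 was not called (95% interval 0.12 to 1.07, adjusted p = 0.091, edgeR). HSALR mice had 40.8, 42.9, 42.1, 26.7 and 27.4 after vehicle and 21.1, 18.1, 29.99, 34.2 and 25.5 after AICAR. The vehicle mice fell into a high set of 3 and a low set of 2, and the latter lay inside the treated range. The difference in HSALR mice was -0.48 (95% interval -0.85 to -0.11, adjusted p = 0.052, edgeR), which also missed the threshold. Both lay near it. The fall in HSALR mice was called in 4 of 9 other fits (DESeq2, library size only, *Tbp* and at least 10 counts, adjusted p 0.029 to 0.047) and in 4 of 10 with a mouse left out (S458, S459, S460 or S462, adjusted p 0.022 to 0.044). The rise in FVB mice was called in 3 of 9 (DESeq2, *Tbp* and only these groups, adjusted p 0.029 to 0.047) and in 0 of 6 with a mouse left out. The test of the difference between the genotypes gave -1.08 (standard error 0.28, 95% interval -1.68 to -0.47, unadjusted p = 0.00167, adjusted p = 0.095, edgeR), while DESeq2 gave an adjusted p of 0.011 and edgeR with scaling to *Tbp* one of 0.031 (-1.38).

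After AICAR, *Ppara* was the member that differed most between genotypes. All 5 HSALR mice (18.1 to 34.2) lay below all 3 FVB mice (54.5 to 63.8), with a log2 fold change of -1.16 (standard error 0.20, adjusted p = 0.00072, edgeR). That call held in all 9 other fits and with each of the 8 mice left out, with values from -1.28 to -1.06. After vehicle the difference was -0.08 (95% interval -0.51 to 0.34).

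**Figure D3:**
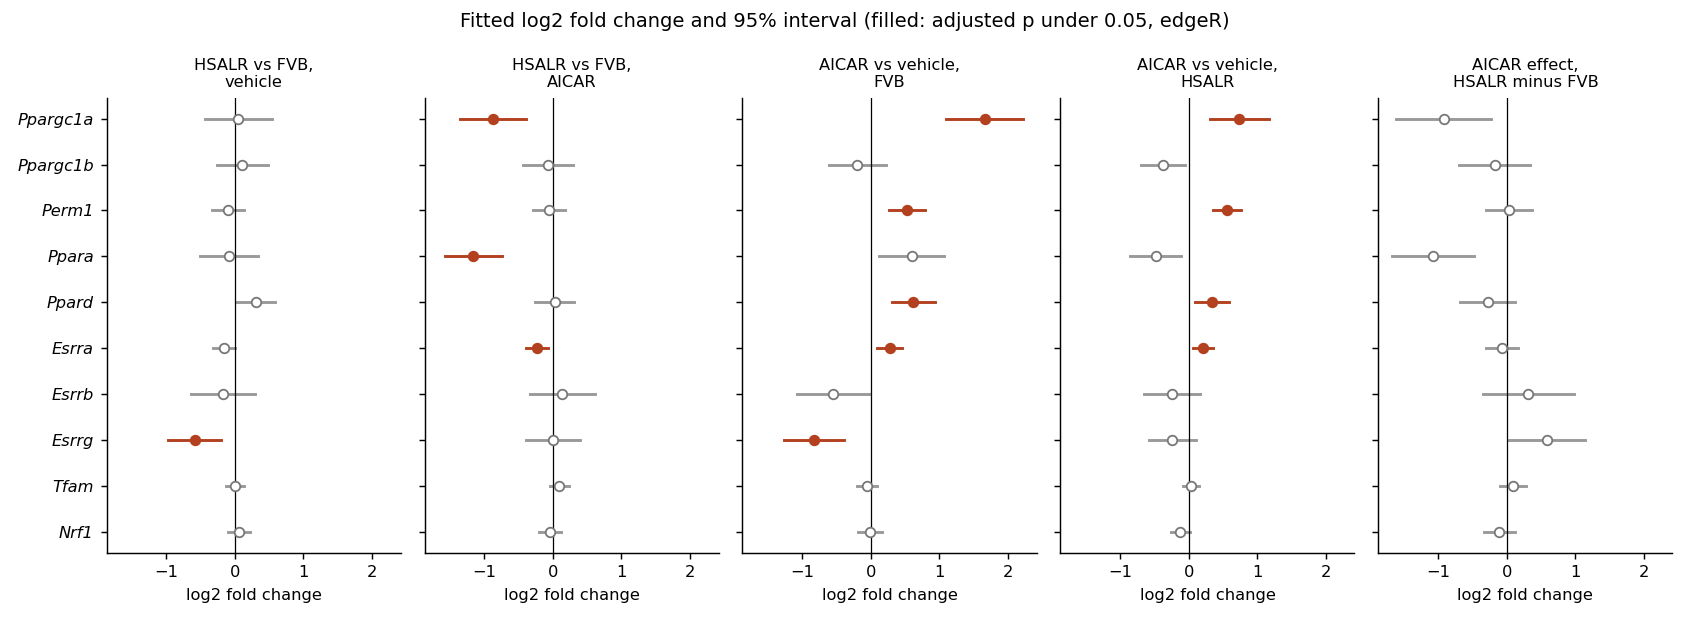
Fitted log2 fold change (x axis) of the 10 genes with its 95% interval in the 4 comparisons between groups and in the difference of the AICAR effects (filled points: adjusted p under 0.05 in edgeR). *Ppargc1a* reached 1.66 in FVB mice and 0.74 in HSALR mice with AICAR, *Ppara* reached -1.16 between genotypes after AICAR, and the intervals of *Tfam* and *Nrf1* stayed within 0.34 of 0 in all 5.

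*Esrra*, the gene of ERRα, rose by a small amount in both genotypes. FVB mice had 102, 92.9 and 107 normalized CPM after vehicle (101 ± 7.11, n = 3) and 124, 116 and 125 after AICAR (122 ± 4.62, n = 3), without overlap. HSALR mice had 92.9, 97.2, 78.0, 94.8 and 87.4 after vehicle (90.1 ± 7.66, n = 5) and 97.1, 94.9, 102, 112 and 113 after AICAR (104 ± 8.35, n = 5), with S454 and S455 inside the vehicle range. The fitted rise was 0.28 on the log2 scale in FVB mice (standard error 0.09, adjusted p = 0.049) and 0.20 in HSALR mice (standard error 0.07, adjusted p = 0.037) in edgeR's test. Both lay near the threshold. In FVB mice the call was lost with any of the 6 mice left out (0.22 to 0.32, adjusted p 0.055 to 0.16), and in HSALR mice it was lost in 4 of 10 such fits (S453, S459, S462 and S463). It was also lost in 4 of 9 other fits in each genotype. In FVB mice these were library size only (0.23, adjusted p = 0.13), no filter, only these groups and the epidermal score (adjusted p 0.059 to 0.066). In HSALR mice they were *Tbp* (0.09, adjusted p = 0.58), library size only (0.13, adjusted p = 0.21), the epidermal score (0.16, adjusted p = 0.26) and only these groups (adjusted p = 0.059). After AICAR all HSALR mice (94.9 to 113) lay below all FVB mice (116 to 125), with -0.23 on the log2 scale (adjusted p = 0.045, edgeR), a call that ended with 6 of 8 mice left out, with *Tbp* (adjusted p = 0.17) and with no filter (adjusted p = 0.057).

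*Esrrg*, the gene of ERRγ, which is most abundant in slow oxidative fibres, went the other way. FVB mice given vehicle had 35.2, 28.9 and 52.0 normalized CPM (38.7 ± 11.9, n = 3) and FVB mice given AICAR had 22.2, 22.6 and 20.5 (21.8 ± 1.12, n = 3). The groups did not overlap, and S450 was the high vehicle mouse. *Esrrg* fell with AICAR, at -0.83 on the log2 scale (standard error 0.21, adjusted p = 0.016, edgeR), and without S450 it was -0.56 and not called (adjusted p = 0.081). It was also not called without S449 (-0.79, adjusted p = 0.064) or with scaling to *Tbp* (-0.61, adjusted p = 0.063).

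HSALR mice had *Esrrg* levels of 34.2, 29.2, 20.8, 22.8 and 21.7 after vehicle (25.7 ± 5.78, n = 5) and 18.7, 19.8, 20.5, 25.4 and 24.4 after AICAR (21.8 ± 2.93, n = 5), and these groups overlapped (-0.24, 95% interval -0.58 to 0.10). After vehicle *Esrrg* was the only member called between genotypes, at -0.59 in HSALR mice (standard error 0.18, adjusted p = 0.025, edgeR), although S451 and S452 lay within the FVB range. Without S450 the difference was -0.32 with an adjusted p of 0.21, and the call was also lost without S453, S458 or S459 (adjusted p 0.051 to 0.056). It was lost too with scaling to *Tbp* (-0.29, adjusted p = 0.24) and with only these groups fitted (adjusted p = 0.079). The difference between the AICAR effects was 0.59 (95% interval 0.03 to 1.14, adjusted p = 0.30, edgeR).

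Slow fibre genes were highest in the same mouse as *Esrrg*. The 8 slow and oxidative fibre genes summed to 16593 normalized CPM in S450 and to between 4402 and 9603 in the other 15 mice. *Myh7*, the slow myosin heavy chain, had 4812 normalized CPM in S450 against 1506 and 1647 in the other FVB vehicle mice. S450 was thus the highest of the 16 mice for the slow fibre genes, for *Esrrg* and for *Esrrb*, and its epidermal markers were also raised (92.3 normalized CPM). Of the 8 slow fibre genes, 4 were called lower in HSALR than FVB mice after vehicle (list median -1.03). Of all genes, 11.5% were called lower there, with a median of 0.01. Without S450, 0 of the 8 were called lower (list median -0.35). Without other single mice 1 (S451, S453 or S459) to 7 were called lower. The part of slow fibre content in the *Esrrg* results was not tested.

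**Figure D4:**
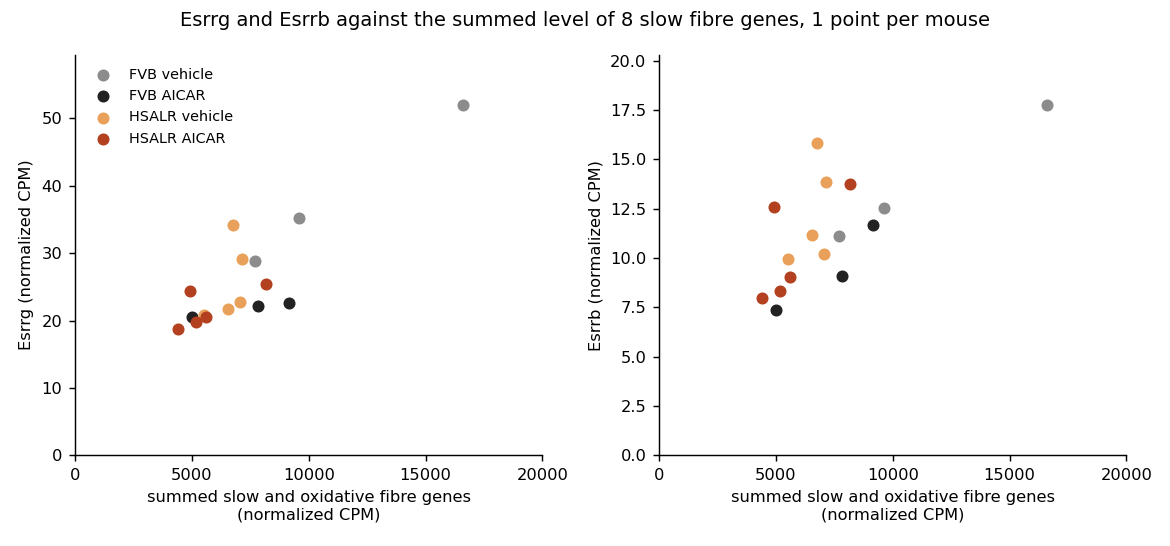
*Esrrg* and *Esrrb* (y axes, normalized CPM) against the summed level of the 8 slow and oxidative fibre genes (x axis, normalized CPM), with 1 point per mouse coloured by group. The point at the far right of both panels is FVB vehicle mouse S450, with 52.0 for *Esrrg* and 17.8 for *Esrrb*.

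*Esrrb*, the least abundant ERR gene, had 12.5, 11.1 and 17.8 normalized CPM in FVB mice after vehicle and 9.09, 11.7 and 7.36 after AICAR. In HSALR mice it had 15.8, 13.9, 9.96, 10.2 and 11.2 after vehicle and 7.95, 8.33, 9.03, 13.7 and 12.6 after AICAR. The groups overlapped in both genotypes. The log2 fold change with AICAR was -0.56 in FVB mice (95% interval -1.08 to -0.03, adjusted p = 0.15, edgeR) and -0.24 in HSALR mice (95% interval -0.65 to 0.17).

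*Nrf1* and *Tfam*, which link the circuit to nuclear genes of respiration and to mitochondrial DNA, were the flattest members. *Tfam* had 61.0, 57.5 and 60.2 normalized CPM in FVB mice after vehicle and 55.0, 57.5 and 58.9 after AICAR, while HSALR mice had 63.4, 64.2, 54.9, 56.3 and 59.4 after vehicle and 59.9, 55.7, 62.1, 65.8 and 62.1 after AICAR. The groups overlapped in every comparison. With AICAR the log2 fold change of *Tfam* was -0.06 in FVB mice (95% interval -0.21 to 0.09) and 0.04 in HSALR mice (95% interval -0.08 to 0.15), so that changes beyond these limits, a fraction of the change in *Ppargc1a*, lay outside the interval. *Nrf1* lay between 11.3 and 13.7 in all 16 mice, with -0.01 in FVB mice (95% interval -0.19 to 0.17) and -0.12 in HSALR mice (95% interval -0.26 to 0.02). The name *Nrf1* here is nuclear respiratory factor 1, not the stress factor encoded by *Nfe2l1*.

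Many, but not all, of the genes that ERRs and PGC-1 are known to act on were called higher with AICAR. Of 20 such genes of the citric acid cycle, the respiratory chain and muscle oxygen handling, 13 were called higher and 1 lower in HSALR mice (list median 0.30, against -0.02 for all genes tested, of which 13.7% were called higher and 13.0% lower). In FVB mice 9 were called higher and 0 lower (list median 0.23, against -0.01 for all genes, of which 8.40% were called higher and 4.77% lower). In HSALR mice the largest called were *Fndc5*, the precursor of irisin, which fell by 0.55, and *Cox7a1* (0.50), *Cycs*, the gene of cytochrome c (0.42), and *Mdh2*, a citric acid cycle dehydrogenase (0.41). In FVB mice they were *Vegfa*, the vessel growth factor (1.08, adjusted p = 0.019), *Cycs* (0.45), *Mdh2* (0.33) and the ATP synthase gene *Atp5b* (0.28), called in edgeR's test. The counts depended on the fit, since 2 of 20 were called higher in HSALR mice when libraries were scaled to *Tbp*, and in FVB mice 3 were called with library size alone and 2 when only the FVB groups were fitted. Leaving out 1 mouse gave 12 to 14 called higher in HSALR mice and 3 to 9 in FVB mice (3 without S446, S447 or S448, and 4 without S450). The list medians stayed above 0 in all of these, between 0.18 and 0.43. The difference between the AICAR effects was called for 0 of 20 by edgeR, with 2 at an unadjusted p under 0.05, and for 0 by DESeq2.

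In the reported fit none of the PPAR target genes was called with AICAR, and several were lower in HSALR muscle. Of the 18 genes of the list, 17 were tested (*Fgf21* was not). With AICAR, edgeR called 0 of 17 in HSALR mice (3 at an unadjusted p under 0.05, DESeq2 1 of 18 lower) and 0 of 17 in FVB mice (1 at an unadjusted p under 0.05, DESeq2 0 of 18). With only the groups compared, 1 was called lower in each genotype, and in HSALR mice 1 was called higher without S451 or S463 and 2 lower without S462. In HSALR against FVB mice, 6 of 17 were called lower after vehicle and 7 after AICAR, and 0 higher, where 11.5% and 9.64% of all genes were called lower. The list medians were -0.29 and -0.21, beside 0.01 and 0.00 for all genes. After vehicle those called included *Cd36*, a fatty acid carrier of the membrane (-0.42), and the mitochondrial acyl-CoA dehydrogenases *Acadl* (-0.40) and *Acadm* (-0.39). After AICAR they included *Fabp3*, the fatty acid-binding protein of muscle (-0.81), *Lpl*, the lipoprotein lipase (-0.56), *Acadm* (-0.50) and *Acadl* (-0.46). Scaled to *Tbp*, 0 of 17 were called lower and 1 higher after vehicle, and 2 lower after AICAR. Without single mice the number called lower lay between 2 (without S445, S450 or S453) and 9 after vehicle, and between 1 (without S447 or S448) and 8 after AICAR. The summed level of 4 endothelial markers was also lower in HSALR mice, without overlap, at 162 to 209.7 normalized CPM against 246 to 272 after vehicle and at 194 to 212 against 240.1 to 264 after AICAR. *Cd36* and *Lpl* are known in endothelium as well as in muscle, and the part of endothelial content in these results was not tested. *Pdk4*, a PPAR target that spares glucose, was looked at after its values were seen. All 3 FVB mice given AICAR (149 to 233 normalized CPM) lay below all 3 given vehicle (364 to 535), but the difference of -1.15 was not called (adjusted p = 0.13, edgeR).

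**Figure D5:**
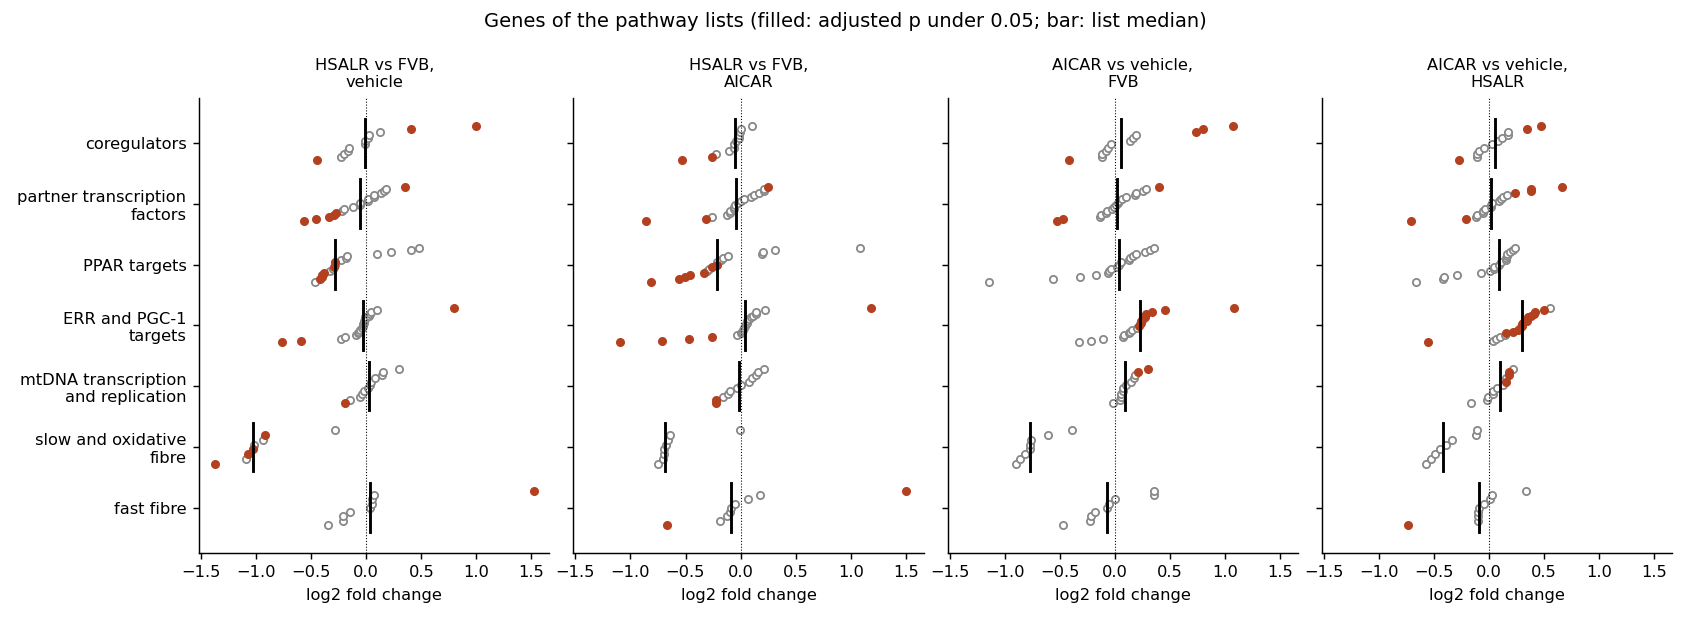
Log2 fold change (x axis) of each gene of the 7 pathway lists in the 4 comparisons between groups, with 1 point per gene (filled: adjusted p under 0.05 in edgeR) and a bar at the list median. The ERR and PGC-1 targets lay to the right with AICAR (medians 0.23 in FVB and 0.30 in HSALR mice), and the PPAR targets to the left between genotypes (medians -0.29 after vehicle and -0.21 after AICAR).

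Among the 12 coregulators, those that meet the members directly differed from one another. *Nrip1* encodes RIP140, a corepressor that opposes PGC-1 at ERRs and PPARs. It had 26.7, 25.7 and 15.6 normalized CPM in FVB mice given vehicle, 56.3, 37.5 and 49.2 in FVB mice given AICAR, and 33.1 to 57.0 in the HSALR vehicle mice. Both of the latter groups lay wholly above the FVB vehicle mice, with 1.07 for AICAR in FVB mice (standard error 0.25, adjusted p = 0.012) and 0.99 for HSALR against FVB after vehicle (standard error 0.23, adjusted p = 0.0052), in comparisons that share the FVB vehicle mice. With AICAR in HSALR mice *Nrip1* differed by 0.02, and the difference between the AICAR effects was -1.05 (adjusted p = 0.14, edgeR). *Pprc1*, the third PGC-1 family gene, had 25.0, 27.6 and 17.6 in FVB mice after vehicle and 39.6, 33.1 and 44.4 after AICAR (0.74, adjusted p = 0.021, edgeR). In HSALR mice *Pprc1* differed by 0.08 (adjusted p = 0.73, edgeR), with S460 high at 38.4 among treated mice of 20.5 to 26.9. Its AICAR effects differed by -0.66 (adjusted p = 0.23, edgeR). The low FVB vehicle mouse was S450 for *Nrip1* (15.6) and for *Pprc1* (17.6), and the coregulators called without S450 are counted below.

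*Crtc2*, a coactivator of CREB that acts on the *Ppargc1a* promoter, was 14.9 to 15.9 normalized CPM in FVB and 10.5 to 12.2 in HSALR mice after vehicle, without overlap (-0.44, standard error 0.07, adjusted p = 0.00036, edgeR). It rose with AICAR in HSALR mice to between 12.6 and 15.6 (0.35, adjusted p = 0.001, edgeR). FVB mice given AICAR had 16.5 to 17.7, which also lay above all FVB vehicle mice. After AICAR *Crtc2* was again lower in HSALR than in FVB mice (-0.26, adjusted p = 0.018, edgeR). Its relative *Crtc3* fell by 0.27 with AICAR in HSALR and by 0.42 in FVB mice, both called. The coactivator gene *Ncoa1* was called higher with AICAR in HSALR mice (0.47). In all, 3 of 12 were called higher and 1 lower with AICAR in FVB mice, 2 higher and 1 lower with AICAR in HSALR mice, 2 higher and 1 lower between genotypes after vehicle, and 2 lower after AICAR. Of all genes, 8.40%, 13.7%, 15.4% and 12.2% were called higher and 4.77%, 13.0%, 11.5% and 9.64% lower in these comparisons, so that several of the counts lay near those shares. The list medians lay between -0.05 and 0.05. The difference between the AICAR effects was called for 0 of 12, with 4 at an unadjusted p under 0.05, and DESeq2 called 2. Scaled to *Tbp*, 0 of 12 were called lower after vehicle or after AICAR. Without S450, 1 of 12 was called higher in each comparison with the FVB vehicle mice, and without S447 or S449 0 were called lower after AICAR.

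Of the 18 partner transcription factors, *Rxrg* stood out between genotypes. It encodes RXRγ, a form of the receptor with which PPARs pair, and had 60.2 ± 3.08 normalized CPM in FVB and 40.7 ± 5.12 in HSALR mice after vehicle, and 79.6 ± 11.6 and 44.0 ± 3.30 after AICAR. The difference was -0.56 after vehicle (adjusted p = 0.00079) and -0.86 after AICAR (adjusted p = 3.8e-05), without overlap in either (edgeR). *Rxra* was also lower in HSALR mice after vehicle (-0.45), with *Gabpb2* (-0.34) and *Tfeb* (0.36 higher) completing the 4 largest. With AICAR, *Tfeb*, a factor for lysosome genes, fell in both genotypes, by 0.71 in HSALR and by 0.52 in FVB mice. In HSALR mice *Epas1*, the hypoxia factor HIF-2α (0.66), and the MEF2 genes *Mef2d* (0.38) and *Mef2a* (0.38) rose, and in FVB mice *Rxrg* rose (0.40) and *Gabpb2* fell by 0.47. Over the list, 4 were called higher and 2 lower with AICAR in HSALR mice, 1 higher and 2 lower in FVB mice, 1 higher and 5 lower between genotypes after vehicle, and 1 higher and 2 lower after AICAR. Of all genes, 13.7% were called higher and 13.0% lower with AICAR in HSALR mice, and 8.40% and 4.77% in FVB mice. Between genotypes the shares were 15.4% higher and 11.5% lower after vehicle, and 12.2% and 9.64% after AICAR. Several of the counts, too, lay near these shares. Between genotypes after vehicle, the 5 called lower lay above their share and the 1 called higher below. Scaled to *Tbp*, 4 were called higher and 0 lower after vehicle, where the median of all genes was 0.28 under that scaling against 0.01. In FVB mice with AICAR, 0 were called higher without S445, S449 or S450. The difference between the AICAR effects was called for 0 of 18 by edgeR, with 2 at an unadjusted p under 0.05, and for 1 by DESeq2.

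The machinery of mitochondrial DNA beside *Tfam* had called differences of at most 0.30 on the log2 scale. Of 12 genes for its transcription and replication, 3 were called higher with AICAR in HSALR mice (*Tfb2m*, 0.18, *Tefm*, 0.18, and *Ssbp1*, 0.15) and 2 in FVB mice (*Mgme1*, 0.30, and *Tfb2m*, 0.21), with list medians of 0.10 and 0.09, where 13.7% and 8.40% of all genes were called higher. With library size only, 0 of 12 were called higher in either genotype. With a mouse left out, 0 to 1 were called higher in FVB mice, and 1 (without S463) to 4 in HSALR mice. *Tfb2m*, which helps the mitochondrial RNA polymerase to start, was also lower in HSALR than FVB mice after vehicle (-0.20) and after AICAR (-0.22, with *Tfb1m* at -0.23). After vehicle 0 of the 12 were called lower without S445 or S450, with only these groups fitted or with *Tbp*, and after AICAR 0 were called lower without S449 or with *Tbp*, and 1 in 6 of the 7 other fits with a mouse left out. None of the slow or oxidative fibre genes was called with AICAR by edgeR in either genotype, with 0 of 8 at an unadjusted p under 0.05 and 0 called by DESeq2, and their medians were -0.42 in HSALR (0.13 with the epidermal score as a covariate) and -0.77 in FVB mice (-0.08 without S450). Of the 9 fast fibre genes, *Pvalb*, the calcium buffer parvalbumin, fell by 0.73 with AICAR in HSALR mice, and *Myh1*, the 2X myosin, was higher in HSALR than FVB mice after vehicle (1.52) and was also called higher there after AICAR. *Myh4*, the 2B myosin, was lower after AICAR (-0.67), though 0 were called lower there without S449. With AICAR in FVB mice 0 of the 9 were called in the reported fit, where 4.77% of all genes were called lower. Without S450, 4 of the 9 were called lower there.

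The genes whose levels followed each member most closely over the 16 mice were found among 9099 genes with a mean of at least 500 reads, by Pearson's correlation of log2 levels. These values describe mice that also differ in genotype and treatment, and no test was made. *Ppargc1a* was closest to *Ado* (0.94), *Socs6* (0.93) and *Gmfb* (0.93), *Perm1* to *Gfod1* (0.95), *Noa1* (0.94) and *Coq5* (0.93), and *Ppara* to *Usp12* (0.96) and *Hspa12b* (0.90). *Esrrb* was closest to *Esrrg* (0.85), the only member found among the 3 closest genes of another, and *Esrrg* to *Coro6* (0.92), *Pygo1* (0.89) and *Ttc38* (0.88). *Esrra* was closest to *Rhot2* (0.92), *Mcrip2* (0.89) and *Lyar* (0.89), *Ppard* to *Ip6k3* (0.89), *Maco1* (0.89) and *Prickle3* (0.88), and *Ppargc1b* to *Zfp667* (0.89), *Map4* (0.89) and *Ehbp1l1* (0.84). The flat members had the weakest such neighbours, *Ctbp2* (0.84), *Gprc5c* (0.79) and *Plekhh3* (0.78) for *Nrf1* and *Igf2r* (0.77), *Ufl1* (0.75) and *Myh14* (0.75) for *Tfam*.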

How the data were processed

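RNA-seq of *gastrocnemius* muscle from 16 mice was analysed from a deposited table. The authors aligned single-end reads to mm10 with STAR 2.5.2a (per the submitters' processing notes), kept 1 location for reads with equally good hits, and counted with QuasR the reads starting in any RefSeq exon. The deposited values are raw counts for 24454 genes by Entrez identifier, with a gene length in bases. The libraries were stranded, and strand use in counting is not given in the sources used here. Depth was 64890014 to 81987726 reads per mouse, so error came mainly from differences between mice. Of the genes, 24374 were matched to names and positions in RefSeq GRCm38.p6.

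In R 4.3.3, edgeR 4.0.16 was used with TMM scaling (factors 0.906 to 1.06), filterByExpr, and a quasi-likelihood fit with 1 mean for each of the 4 groups. The 5 contrasts were each genotype comparison, each AICAR comparison and their difference, with Benjamini-Hochberg adjustment over 15487 genes. Groups came from the sample labels, where controls are marked CTRL (the design text names a vehicle). The alternatives were DESeq2 1.42.0, limma 3.58.1 with voom, RLE scaling, library size only, scaling to *Tbp*, no filter, at least 10 counts in every library, only the groups compared, an epidermal marker score as a covariate, and leaving out each mouse in turn. Counts over the pathway lists under these alternatives were chosen after seeing the data, as were the ERR half-site and the cAMP response element core. The members and lists were chosen with earlier results of these data known. All members are named, with up to 4 called genes per list and comparison of the largest change, list genes that act directly with a member, and the 3 genes closest to each member. A few genes that this rule would name are not reported here. Splicing was not analysed here.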

Additional observations from a re-analysis of the deposited data

Results flagged for a closer look

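*Ppargc1b* in HSALR vehicle mouse S459 stood apart from the rest of its group, with 17.1 normalized CPM against 10.6 to 12.3 in the other 4 mice. This was the only such value among 20 groups of 5 values looked at (10 genes in the HSALR groups), and chance gives about 1 in 20. The FVB groups of 3 mice were too small to be looked at in this way.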

How the results depend on the processing

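The other fits gave 440 values, 1 per member, comparison and fit, and values of the same fit are not independent. Of these, 388 kept direction and side of the threshold, 17 lost the call, 12 gained it and 23 changed sign. Of 480 such values from fits without 1 mouse, the numbers were 417, 32, 5 and 26. No value that changed sign was called in either fit. With scaling to *Tbp* the median of all genes was 0.28 (genotype after vehicle), -0.13 (AICAR in HSALR), 0.19 (AICAR in FVB), -0.32 (their difference) and -0.04 (genotype after AICAR). The values that changed sign with it were *Ppara* 0.19, *Esrra* 0.12, *Esrrb* 0.12 and *Perm1* 0.18 after vehicle, *Tfam* -0.076 (AICAR in HSALR), *Tfam* 0.14 and *Nrf1* 0.20 (AICAR in FVB), *Esrrb* -0.016, *Tfam* -0.22 and *Perm1* -0.28 (difference), and *Ppard* -0.014 after AICAR. Other changes of sign were near 0. After vehicle they were *Ppargc1a* -0.00073 (voom) and *Tfam* -0.0093 (DESeq2), -0.0013 (voom) and -0.0099 (RLE). *Tfam* was -0.042 for AICAR in HSALR mice with library size only. *Esrrg* after AICAR was -0.012 (DESeq2), -0.0099 (voom), -0.012 (RLE), -0.018 (library size), -0.039 (*Tbp*), -9.7e-05 (no filter) and -0.0054 (only the groups compared). Leaving out mice changed the sign of these values, with ranges after vehicle of -0.17 to 0.15 (*Ppargc1a*), -0.025 to 0.17 (*Ppargc1b*), -0.19 to 0.0059 (*Ppara*), -0.31 to 0.047 (*Esrrb*) and -0.040 to 0.029 (*Tfam*). They were -0.084 to 0.046 for *Nrf1* (AICAR in FVB) and -0.050 to 0.12 for *Perm1* (difference). After AICAR they were -0.17 to 0.072 (*Ppargc1b*), -0.11 to 0.12 (*Ppard*), -0.0080 to 0.33 (*Esrrb*), -0.060 to 0.051 (*Esrrg*), -0.11 to 0.030 (*Nrf1*) and -0.15 to 0.013 (*Perm1*). The number of all genes called moved for AICAR in HSALR mice from 4121 to 2108 with the epidermal score, which was low in all HSALR mice given AICAR. For AICAR in FVB mice it was 2039, 1164 with only these groups fitted (fewer mice), and 1143 to 1726 without single mice (1143 without S449, 1214 without S445, 1344 without S448). For the difference it was 107, 535 with DESeq2, 381 with *Tbp*, 57 with the epidermal score and 15 (without S448) to 371 (without S460). For genotype after AICAR it was 3379, 1396 with *Tbp* and 2214 (without S447) to 3790. The cause of these moves was not tested beyond what is named. Of the members called with AICAR in HSALR mice, 2 of 4 stayed called with library size only or *Tbp*, and 1 with the epidermal score. The difference needs all 4 groups, so it has no fit of only the groups compared. Mice share no number across groups, and none were paired. With 3 FVB mice per group, small changes such as that of *Esrra* lay at the limit of what could be called.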
